A study of Mus musculus with 4 samples.

Results

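The genes described here are 8 of the 31053 genes measured: the stefin A genes Stfa1, Stfa2, Stfa2l1, Stfa3, BC100530 and Gm5483, which lie together on mouse chromosome 16, with Retnlg on the same chromosome and Asprv1 on chromosome 6. They were taken by gene symbol, and each symbol matched 1 row of the deposited table. The 8 had been proposed with values of these libraries in view, so the counts of members that differ are a description and not independent evidence, and the p-values below place each gene among all genes tested. The libraries held single-cell RNA profiles (10x 3' kit, v3.1) of liver immune cells from male mice of 8 weeks. All of them, controls included, had been injected with MC38, a colorectal cancer line of the mouse, in a model in which surgical stress promotes spread to the liver. At 3 weeks from injection the liver's non-parenchymal cells were collected, and those with CD45, a surface protein of blood-derived cells, were drawn out with beads. There were 2 libraries of sedentary mice (Sed 1 and Sed 2) and 2 of mice given exercise ahead of surgery (Ex 1 and Ex 2), of a kind and length that the labels do not state. The strain, and whether each library came from 1 animal or several, is not stated, so p-values measure only the spread between these libraries.

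Stefins are small cytosolic inhibitors of cysteine cathepsins, the lysosomal proteases, and the mouse has a cluster of stefin A genes where humans have a single one. Retnlg encodes resistin-like gamma, a small secreted protein of the resistin family that is abundant in mouse neutrophils. Asprv1 encodes a retroviral-like aspartic protease best known from the skin and also transcribed in neutrophils. Neutrophils leave the bone marrow after making their granule proteins in order, so granule transcripts such as Camp and Ltf mark young cells, while Il1b, Cxcl2 and Ccrl2 mark mature or activated ones.

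The 6 stefin A members span 299 kb at chr16:36156811-36455392 (GRCm38, GENCODE vM21), Retnlg lies at chr16:48872621-48874496 and Asprv1 at chr6:86628164-86629710, all protein coding. Because the stefin A genes are neighbours of one family, the bases upstream of their transcription starts are shown (RefSeq, GRCm38.p6, 5′ to 3′ on the gene's strand), with the letters TTTAAA in capitals where they occur. All 8 members matched a RefSeq promoter, 7 by symbol or synonym and BC100530 by transcript accession.
Stfa2l1, chr16:36156711-36156810, plus strand: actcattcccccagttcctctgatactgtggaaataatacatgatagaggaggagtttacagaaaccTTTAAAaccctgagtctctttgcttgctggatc
Gm5483, chr16:36184112-36184211, plus strand: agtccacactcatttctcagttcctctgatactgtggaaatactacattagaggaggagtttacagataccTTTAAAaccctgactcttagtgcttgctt
Stfa3, chr16:36455393-36455492, minus strand: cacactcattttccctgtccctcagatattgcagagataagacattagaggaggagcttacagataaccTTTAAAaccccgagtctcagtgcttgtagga
Stfa1, chr16:36277106-36277135, plus strand: ctttcggataccTTTAAAaccctgagtctc
Stfa2, chr16:36408375-36408404, minus strand: cttacagaaaccTTTAAAaccctgagtctc
BC100530, chr16:36367571-36367600, minus strand: gaggaggagtttacagataccTTTAAAacc
Asprv1, chr6:86628074-86628163, plus strand: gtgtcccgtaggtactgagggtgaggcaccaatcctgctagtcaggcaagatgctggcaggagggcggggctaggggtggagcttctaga
Retnlg, chr16:48872508-48872607, plus strand: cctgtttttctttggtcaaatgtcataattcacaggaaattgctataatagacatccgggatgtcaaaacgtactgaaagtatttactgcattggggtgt
For Stfa1, Stfa2 and BC100530 only 30 bases around those letters are given, since in GENCODE most or all of the window, these bases included, lies in an exon of a longer transcript. Over the 100 bases before the RefSeq start, the 15 pairs of stefin A members shared 50% to 83.5% of aligned positions (median 76%), and the 13 pairs that include Retnlg or Asprv1 shared 36.9% to 52.3% (median 46.2%). Among the stefin A pairs, those with BC100530 were at 50% to 60.3% and the others at 75.2% to 83.5%. The BC100530 window is shifted, as its RefSeq start lies only 9 bases from TTTAAA, and the part of that shift was not tested.

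TTTAAA stood in the 100 bases before the start of all 6 stefin A members and of neither Retnlg nor Asprv1, against 4.39% of the same windows of the 32851 promoters in the RefSeq set. It started 29 to 33 bases before the RefSeq start in 5 members and 9 bases before it in BC100530. The longer block TTTAAAACCC, which begins with TTTAAA and so overlaps it, was found in 5 members against 0.0548% of all promoters. The window of BC100530 ends within the block, after TTTAAAACC, so no match was possible at that place. Both blocks were chosen after the sequences had been seen, and both strands were searched. The C/EBP pattern TTNCNNAA was found in 3 members (14.9% of all promoters), the PU.1 core GAGGAA in 3 (9.82%) and the RUNX core TGTGGT in none (5.61%). Apart from TTTAAA within the longer block, no match overlapped one of another motif. The gene copies also resemble each other in the part that a 3' library reads: over the last 300 bases of the transcript, 41.7% of the 90-base stretches of BC100530 also occur in a transcript of Stfa1 or BC117090, 21.3% of those of Gm5483 occur in 2010005H15Rik and 18.5% of those of Stfa1 occur in BC100530. That share was 3.79% in Stfa2, 3.32% in Stfa2l1 and 0 in Stfa3, Asprv1 and Retnlg, so the split of counts between Stfa1, BC100530 and Gm5483 and their near copies is uncertain.

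The 28525 barcodes held 135480097 UMIs (unique molecular identifiers, counts of captured RNA molecules), and 4097 to 7141 cells per library were kept, with median depths of 3284 to 3749 UMIs. The median share of mitochondrial UMIs was 2.61% and 2.95% in the sedentary and 3.92% and 4.35% in the exercised libraries. Its part in the results was not tested. Cells were assigned to libraries through the order of the matrix columns and barcodes, and changes in the cells' profiles lay 8, 32 and 35 cells from the 3 block ends. The libraries shared 83 of 28442 barcode sequences.

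Neutrophil-like cells held almost all transcripts of the 8 genes. Their class was named from markers such as S100a8, Csf3r and Cxcr2 and numbered 4436 of 23840 kept cells: 2237 in Sed 1, 1250 in Sed 2, 585 in Ex 1 and 364 in Ex 2. Of the UMIs in kept cells, 99.1% of those of Retnlg (355628 of 358717) were in this class, and for the other members the share ran from 97.3% for Stfa3 to 99.4% for BC100530. The class made up 32.7% and 17.5% of the sedentary and 10.2% and 8.88% of the exercised cells (exact permutation test, two-sided p = 0.333, the smallest that 2 against 2 libraries can give).

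The members differed in how widely they were spread over neutrophils. Retnlg had a UMI in 97.9% and 93.4% of the sedentary and 83.1% and 88.5% of the exercised neutrophils. At a fixed depth of 1000 UMIs per cell, which left out 66, 117, 11 and 8 shallower cells of Sed 1, Sed 2, Ex 1 and Ex 2, those shares were 96.3%, 92.7%, 75.8% and 80.6%. The 6 stefin A genes, counted as one, had a UMI in 86.9% and 71.8% of sedentary against 49.2% and 51.6% of exercised neutrophils, and in 80.7% and 66.1% against 42.9% and 42.1% at the fixed depth. Both exercised libraries were below both sedentary ones in each of these shares. UMIs of 4 of the stefin A genes were held by few cells: in Sed 1 the top 5% of neutrophils by UMIs of the gene held 62.2% of the BC100530, 59.9% of the Stfa1, 53.0% of the Stfa2 and 78.2% of the Stfa3 UMIs, with up to 312 UMIs of BC100530 in a single cell. For Stfa2l1 and Gm5483, the stefin A genes with the most UMIs, and for Asprv1 the same share was 24.0%, 30.2% and 21%, and for Retnlg 17.1%.

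In the neutrophils, cells were divided into 3 stages without use of the 8 genes. Granule-rich cells formed 1 subcluster led by Ltf, Camp and Ngp. The other 3782 cells were split at the median of a score of mature minus granule genes into intermediate and late cells of equal number, with 312 cells within 0.1 SD of the split. The stages carried the transcripts that define them in every library: Camp was at 21300 to 37990 CPM (a gene's UMIs scaled to the same total, 1e6, for the summed cells of each library) in granule-rich, 122 to 192 CPM in intermediate and 2.52 to 6.48 CPM in late cells. Il1b was at 114 to 317, 3310 to 4855 and 11070 to 13010 CPM in the same order. Within granule-rich cells the groups differed in these genes. Camp was at 21300 and 25670 CPM in Sed 1 and Sed 2, against 37990 and 32410 in Ex 1 and Ex 2. Ngp was also higher in both exercised libraries, while Ltf, Lcn2, Chil3 and Cd177 overlapped. Srgn was at 1053 and 1084 against 479 and 581 CPM. Cxcr2, Il1b and Cxcl2 were also lower in both exercised libraries, and the other mature genes of the score overlapped.

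Retnlg peaked in the middle stage. Its level in granule-rich cells was 14997 CPM in Sed 1, 11831 in Sed 2, 5177 in Ex 1 and 6788 in Ex 2. In intermediate cells it was 47810, 47959, 22958 and 28006 CPM, and in late cells 20948, 19634, 8084 and 6876 CPM. The step from granule-rich to intermediate was 1.97 ± 0.21 on the log2 scale (log2 of CPM + 1, SD over 4 libraries) and upward in 4 of 4 libraries, and the step to late cells was -1.50 ± 0.37 and downward in all 4. These steps are a description, since stages and levels come from the same cells. Where the cells were instead cut into 3 equal groups by the score, the first step was 0.41.

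The stefin A genes, taken as a sum, were lowest in the granule-rich cells of every library. Their summed level in granule-rich cells was 5836, 1018, 128 and 147 CPM in Sed 1, Sed 2, Ex 1 and Ex 2. In intermediate cells it was 11751, 7307, 2051 and 1615 CPM, and in late cells 8681, 5376, 2180 and 2052 CPM. The first step was 2.82 ± 1.30 on the log2 scale and upward in 4 of 4 libraries, and the second -0.11 ± 0.39, downward in the sedentary and upward in the exercised libraries. Unlike Retnlg, the sum therefore showed no common direction between intermediate and late cells. Single stefins differed in course. Stfa3 was at 576 and 66.1 CPM in sedentary granule-rich cells and at 53.7 and 23.5 CPM in late ones. Stfa2l1 was at 1054 and 388 CPM in sedentary granule-rich and at 3505 and 2310 CPM in late cells. In Sed 1 Stfa2 and BC100530 were higher in granule-rich than in late cells, at 905 against 499 and 1306 against 626 CPM. In Sed 2 they were lower there, at 69.0 against 151 and 32.3 against 257 CPM. Asprv1 was at 869, 382, 85.8 and 77.5 CPM in granule-rich, 1984, 1350, 463 and 598 CPM in intermediate and 2229, 1518, 835 and 661 CPM in late cells of Sed 1, Sed 2, Ex 1 and Ex 2.

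**Figure D1:**
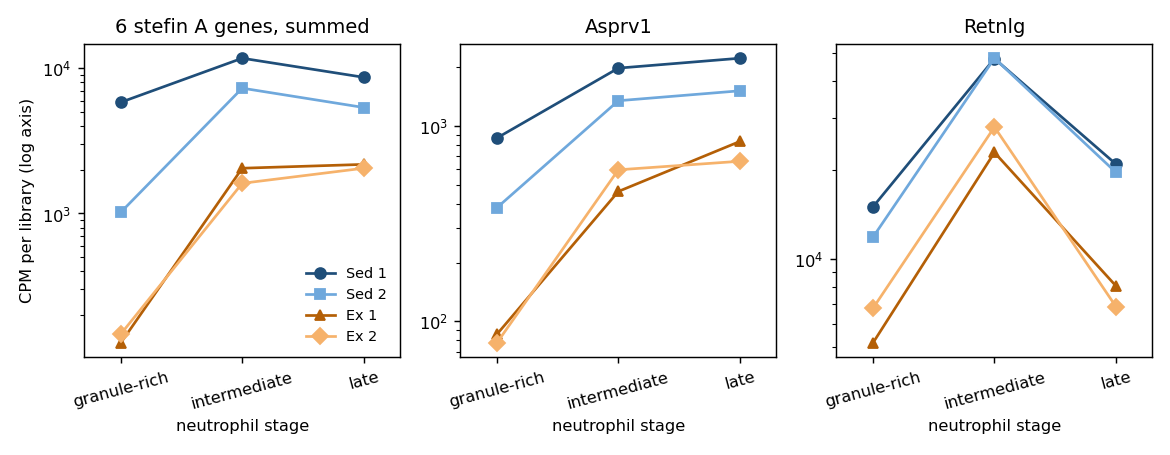
Level of the 6 summed stefin A genes, Asprv1 and Retnlg (CPM, log axes that differ between panels) in granule-rich, intermediate and late neutrophil-like cells, with 1 line per library. In all 3 panels and at every stage both exercised libraries lie below both sedentary ones, and Retnlg has its highest level in the intermediate cells of each library.

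The stages were unevenly filled. Intermediate cells made up 58.6% and 38.6% of the neutrophils in the sedentary and 11.6% and 8.24% in the exercised libraries, and late cells 24.4% and 50.4% against 73.2% and 79.1% (exact permutation test, p = 0.333 for both). Granule-rich cells took 17%, 11%, 15.2% and 12.6% of Sed 1, Sed 2, Ex 1 and Ex 2 and overlapped between the groups (exact permutation p = 1). The stage in which Retnlg was highest thus held 68 cells of Ex 1 and 30 of Ex 2, against 1311 and 482 of the sedentary libraries. Some subclusters were nearly confined to 1 library: 957 of the 1019 cells of the largest came from Sed 1, and 560 of the 705 cells of another from Sed 2.

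Outside neutrophils Retnlg was low, at 0 to 89.7 CPM over the libraries of the monocyte-like, Kupffer-like, cDC1-like, B-like, T-like, NK-like and endothelial-like classes, whose ranges all overlapped. Cells left without a class name, among them an immature cluster described below, were at 190, 32.0, 21.4 and 2.55 CPM in Sed 1, Sed 2, Ex 1 and Ex 2. Free RNA in droplet libraries gives a few UMIs to cells that do not make a gene. The share of cells with a UMI is therefore set beside that of B-like cells. B-like cells, which should lack Retnlg, had a UMI of it in 8.74% and 3.17% of sedentary and in 0.7% and 0.68% of exercised cells, at median depths of 1928, 1626, 2308 and 2721 UMIs, against 2090 to 2591 UMIs in neutrophils. At 1000 UMIs per cell the B-like shares were 4.49%, 2.60%, 0.305% and 0.0853%, after leaving out 25, 103, 15 and 3 cells. Kupffer-like cells, the resident liver macrophages, had shares of 15.4% and 5.61% in the sedentary and 1.09% and 0 of 85 cells in the exercised libraries. At the fixed depth these were 4.60%, 1.01%, 0 of 69 and 0 of 48 cells, after leaving out 117, 268, 114 and 37 cells. They were about the B-like share in Sed 1 and below it in Sed 2, while the counts of 0 allow shares of up to 4.35% and 6.25% and show no order. Monocyte-like cells were at 2.76%, 0.768%, 0.258% and 0.798% at that depth, above the B-like share in Ex 2 alone.

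A second comparison sets Retnlg against S100a8 and S100a9, alarmin genes abundant in neutrophils. Per 1000 S100a8 and S100a9 UMIs, neutrophils held 145, 144, 39.2 and 67.8 Retnlg UMIs in Sed 1, Sed 2, Ex 1 and Ex 2. B-like cells held 145, 109, 31.1 and 70.2, from 125, 29, 7 and 8 Retnlg UMIs. The libraries had the same order in both. T-like cells held 204, 90.1, 86.1 and 63.8 and NK-like cells 172, 125, 131 and 115. Both were above the neutrophil ratio in Sed 1, from 183 and 47 Retnlg UMIs, and in Ex 1, from 29 and 14. In Ex 2 only the NK-like ratio of these 2 was above it, from 3 UMIs, and in Sed 2 both were below. Monocyte-like cells, with many S100a8 and S100a9 UMIs, had lower ratios of 7.50, 4.36, 5.25 and 30.3, from 1002, 272, 7 and 134 Retnlg UMIs. In the monocyte-like cells of Ex 2, 7 cells held the 134 UMIs and a single cell 75 of them. The immature cluster led by Mpo and Elane, early granule genes, had no class name. Its Retnlg level was 151, 35.6, 104 and 0 CPM in Sed 1, Sed 2, Ex 1 and Ex 2, from 48, 108, 60 and 28 cells.

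**Figure D2:**
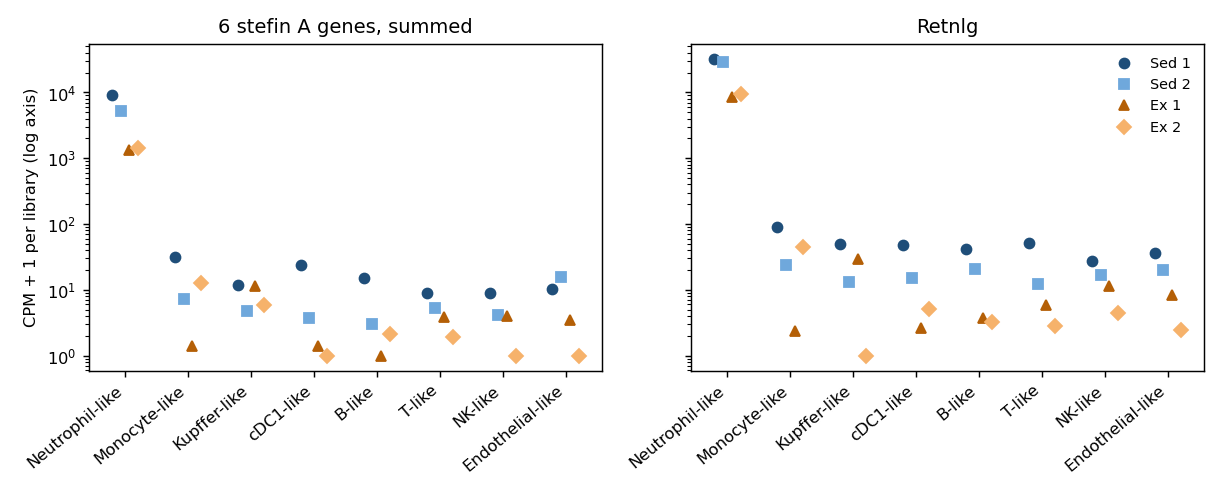
Level of the 6 summed stefin A genes and of Retnlg (CPM + 1, log axis) by cell class, with 1 point per library. The neutrophil-like class stands above all others in every library, with Retnlg at 8461 to 32447 CPM against at most 89.7 CPM in the other classes drawn.

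The comparison of exercised with sedentary mice asked how the neutrophil transcripts differ between the groups. All 8 genes were lower in the exercised libraries, and 4 passed the test: Gm5483, Stfa2l1, Retnlg and Asprv1 (edgeR quasi-likelihood test on UMIs summed per library, Benjamini-Hochberg over all 7577 genes tested, threshold 0.05). Of those 7577 genes 20, or 0.264%, were called lower. Both exercised libraries lay below both sedentary ones for all 8 members, as they did for 11.7% of all genes tested. The median log2 change of the members was -3.07, against 0.02 over all genes tested. Since the members were chosen with results known, nothing is read from these counts beyond the values.

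Among the stefin A genes, Gm5483 was at 2815 CPM in Sed 1, 2249 in Sed 2, 529 in Ex 1 and 536 in Ex 2. Its log2 change was -2.47 ± 0.24 (SE, n = 2 libraries per group, edgeR adjusted p = 0.0027). Stfa2l1 was at 2563, 1981, 685 and 759 CPM and changed by -1.88 ± 0.23 (edgeR adjusted p = 0.0138). The groups did not overlap for either, and the exercised libraries were close to each other. Stfa1 was at 1297, 404, 71.4 and 82.7 CPM, with a log2 difference of -3.68 ± 0.62 that did not pass (edgeR adjusted p = 0.105). BC100530 was at 1223, 276, 15 and 28.6 CPM, with a difference of -5.36 ± 1.04 (edgeR adjusted p = 0.17). Stfa2 stood at 995, 206, 16.4 and 12.0 CPM, with a difference of -5.56 ± 1.13 (edgeR adjusted p = 0.188). In these 3 genes Sed 1 was far above Sed 2, and the wide spread between the sedentary libraries went with p-values that missed the threshold. Stfa3 was at 353, 58.9, 11.8 and 26.3 CPM (-3.71 ± 1.24, edgeR adjusted p = 0.326).

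Retnlg was at 32447 CPM in Sed 1, 29066 in Sed 2, 8461 in Ex 1 and 9429 in Ex 2. It fell by 2.01 ± 0.27 on the log2 scale (edgeR adjusted p = 0.0222). Asprv1 was at 1635 and 1201 against 490 and 484 CPM and fell by 1.76 ± 0.24 (edgeR adjusted p = 0.0226). Both differences were larger than the spread within either group. The DESeq2 Wald test called 134 genes (1.77%), among them 7 of the members. Without Ex 1 no gene passed in edgeR (789 at an unadjusted p under 0.05, 7 of them members), and without Ex 2 8 genes and no member passed, although all 8 members remained lower. Without Sed 1 and without Sed 2 all 8 passed in edgeR, where 1.99% and 4.06% of all genes were called lower. Without Sed 1 the difference was -1.99 for Stfa3, -4.0 for BC100530, -4.09 for Stfa2 and -2.68 for Stfa1, so that library sets much of the size of these 4.

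**Figure D3:**
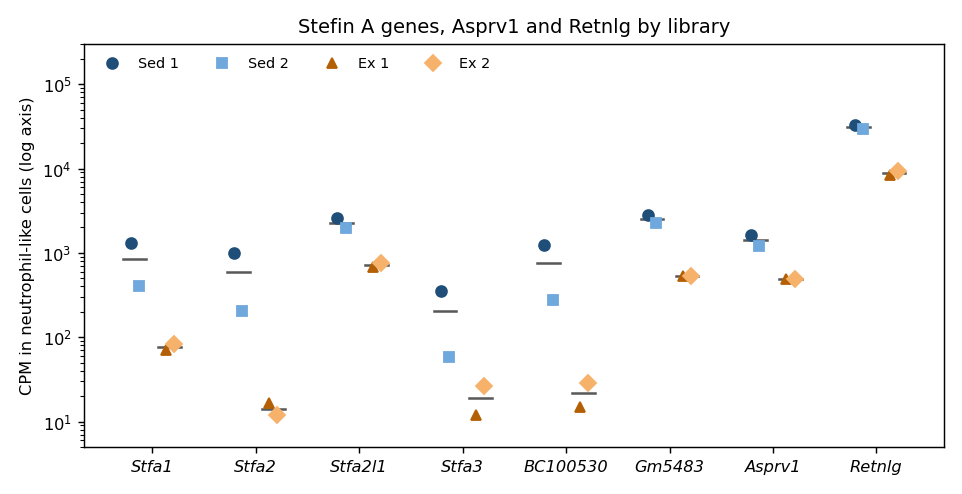
Level of each gene (CPM, log axis) in neutrophil-like cells of the 2 sedentary and 2 exercised libraries, with the group mean as a bar. Every gene has both exercised points below both sedentary points, and Stfa1, Stfa2, Stfa3 and BC100530 have a wide gap between Sed 1 and Sed 2.

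Within each stage the fitted change of all 8 members was negative, but only some passed, and in granule-rich cells Stfa1 overlapped, with Ex 2 at 36.2 and Sed 2 at 32.3 CPM. In late cells 2 of 8 passed, where 0.273% of 5498 genes were called lower and 14.2% had both exercised libraries below both sedentary ones. BC100530 was at 626 and 257 against 30.9 and 47.4 CPM and fell by 3.56 ± 0.39 (edgeR adjusted p = 0.0014), a call that held in all 8 alternatives run for late cells. Gm5483 was at 2893 and 2318 against 860 and 724 CPM and fell by 1.79 ± 0.29 (edgeR adjusted p = 0.0134). Retnlg, with the values given above, had a difference of -1.52 ± 0.31 that narrowly missed (edgeR adjusted p = 0.0538). The median change of the 8 members in late cells was -1.80, against a median of 0.00 over all genes. DESeq2 called 7 of them, where it called 0.527% of all genes lower.

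In intermediate cells 4 of 8 members passed, where 0.22% of 4553 genes were called lower and 16.7% did not overlap in that direction. They were Stfa1 (1544 and 698 against 117 and 80.1 CPM, -3.58 ± 0.46, edgeR adjusted p = 0.0144), Gm5483 (4052 and 3201 against 762 and 857 CPM, -2.30 ± 0.35, edgeR adjusted p = 0.0307), Stfa2 and BC100530. Stfa2 went from 1204 and 336 to 30.3 and 18.5 CPM (-5.02 ± 0.73, edgeR adjusted p = 0.0359). BC100530 had 4906 and 523 UMIs in the sedentary and none in the exercised libraries. If UMIs were independent, a floor of 3 counts would put it at least 146-fold lower over the group. Against Sed 2 alone that figure would be 56.4-fold. Its UMIs lay in only 33.3% and 15.1% of the sedentary cells, and the exercised cells numbered 68 and 30, so the intermediate cells allow a smaller fold. Retnlg did not pass in these cells (-1.06 ± 0.35, edgeR adjusted p = 0.248), and no member passed without Ex 1 or without Ex 2, the libraries with 68 and 30 cells.

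In granule-rich cells 3 of 8 members passed, where 2.78% of 5104 genes were called lower and 19.2% did not overlap in that direction. Retnlg fell by 1.24 ± 0.25 (edgeR adjusted p = 0.00303) and Asprv1 by 3.00 ± 0.42 (edgeR adjusted p = 0.00305). Stfa2l1 went from 1054 and 388 to 39.0 and 38.8 CPM (-4.28 ± 0.64, edgeR adjusted p = 0.0252). Stfa2 had 2265 and 47 UMIs in the sedentary and none in the exercised libraries. The fit did not call it, as the sedentary libraries differed widely. If UMIs were independent, a floor of 3 counts would put it at least 311-fold lower over the group and 29.6-fold lower than Sed 2 alone. Its UMIs lay in only 32.8% and 5.07% of the sedentary cells, and the exercised cells numbered 89 and 46, so the granule-rich cells allow a smaller fold. BC100530 had 3267 and 22 sedentary UMIs against 1 exercised UMI in all, a ratio of 1328 whose 95% interval from counting runs from 238 to 52450. Against Sed 2 alone the ratio was 41.5 (6.71 to 1713), so the pooled value is mostly that of Sed 1. Both intervals also take UMIs as independent, while those of BC100530 lay in 27.8% and 4.35% of the sedentary cells. Without Ex 1, 1 of the 8 passed, where 0.902% of all genes were called lower.

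The stage test of the difference itself called 27 of 6185 genes (0.437%), of which BC100530 was the single member, with a value set by its 0 exercised UMIs in intermediate cells. The exercise effect on Retnlg was -0.39 ± 0.20 on the log2 scale in late minus intermediate cells (edgeR adjusted p = 0.623), and the other 6 members had differences between 0.48 and 1.25 that did not pass. All 8 members had an unadjusted p under 0.05 in this edgeR test, as did 495 of the 6185 genes (8%). When the 3 stages were weighted equally in each library, a setting chosen after the data were seen, the Retnlg change was -1.21 (edgeR adjusted p = 0.0738), against -2.01 in all neutrophils. Gm5483, Stfa2l1 and Asprv1 still passed there, with changes of -2.19, -1.82 and -1.75.

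The largest subcluster with at least 30 cells in every library gave the members different results. It had 44 cells of Sed 1, 210 of Sed 2, 356 of Ex 1 and 235 of Ex 2, was led by Steap4, Atf3 and Clec4n, and was picked after its values had been seen. Retnlg was at 9405, 10295, 10660 and 9025 CPM there, in that order of libraries, so the groups overlapped. Its log2 difference was 0.07 ± 0.27, with a 95% interval of -0.52 to 0.66 (edgeR adjusted p = 0.983). That interval does not reach the change of -2.01 seen over all neutrophils. In the same cells BC100530 was at 345 and 139 against 35.7 and 46.8 CPM (-2.26 ± 0.40, edgeR adjusted p = 0.022). Asprv1 was at 2670 and 1949 against 772 and 835 CPM (-1.44 ± 0.25, edgeR adjusted p = 0.022). These 2 of the 7 members tested were called, where 0.721% of 3605 genes were called lower. Gm5483, Stfa2l1, Stfa1 and Stfa2 had differences of -1.37, -1.05, -3.00 and -3.41 that did not pass, with no overlap between the groups, as for 20.7% of all genes tested there. Without Sed 1, whose 44 cells gave most of the Stfa1 UMIs of the sedentary group, the Stfa1 difference was -0.44. The call of Asprv1 was lost without Ex 1 (edgeR adjusted p = 0.106) and without Ex 2 (edgeR adjusted p = 0.202), and that of BC100530 stood without any 1 library. In the other subclusters Retnlg was lower in both exercised than in both sedentary libraries, with 1 exception. In the subcluster led by Cxcl10 it was at 20052 and 12827 against 1647 and 2265 CPM, from 10, 40, 59 and 18 cells. In that led by Thbs1 it was at 49995 and 48630 against 31574 and 45242 CPM, with 34 and 23 exercised cells. Exercised cells were also few in the subclusters led by Gm19951 (8 and 5) and by mt-Nd1 (10 and 3). The exception was the subcluster led by F13a1, at 51444 and 47903 against 15761 and 57892 CPM, with 5 and 1 exercised cells. Whether the Retnlg change differs between the subcluster led by Steap4 and the rest was not tested.

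**Figure D4:**
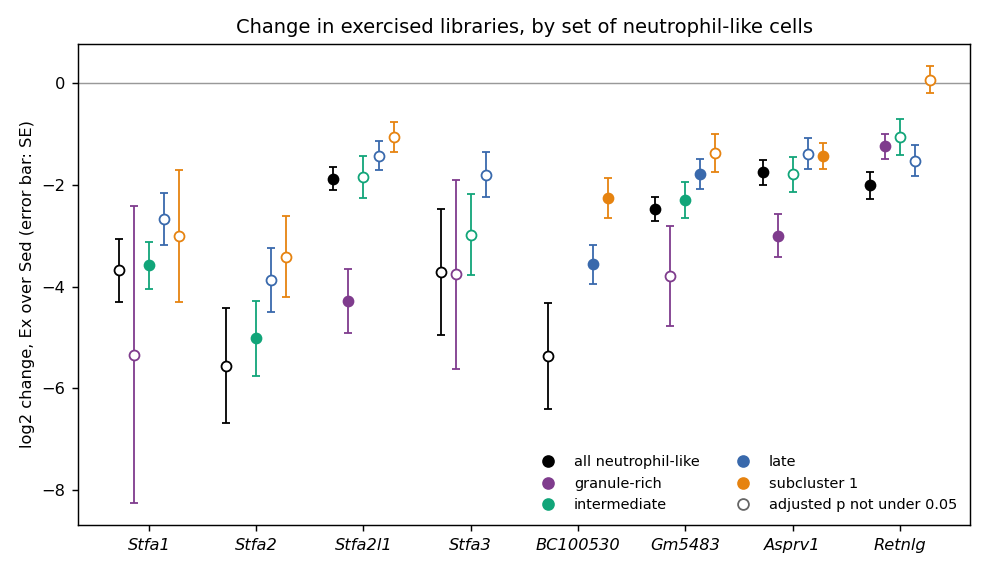
Log2 change from sedentary to exercised (points, error bars are SE) of each gene over all neutrophil-like cells, the 3 stages and subcluster 1, with filled points for an edgeR adjusted p under 0.05. Values of genes with 3 or fewer exercised UMIs are left out. All points lie below 0 except Retnlg in subcluster 1, at 0.07.

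In monocyte-like cells no member passed: 4 were tested, at 1.2% of 10484 genes called lower, 1 had an unadjusted p under 0.05 (Asprv1) and DESeq2 called 1. Retnlg was at 89.7 and 22.8 against 1.34 and 44.0 CPM, so its groups overlapped (-1.44 ± 1.96, edgeR adjusted p = 0.789). The clusters of this class were unevenly filled. That led by Vcan held 541, 1052, 41 and 43 cells of Sed 1, Sed 2, Ex 1 and Ex 2, and that led by Chil3 626, 137, 4 and 3. The cluster led by Tppp3 and Ace held 190, 388, 734 and 331. The comparison therefore sets largely different monocyte-like cells against each other, and the clusters were not tested apart. In Kupffer-like cells Retnlg was the single member with enough counts, at 48.8 and 12.1 against 28.3 and 0 CPM (-0.77 ± 1.45, edgeR adjusted p = 0.878). There 2 of 6935 genes were called in either direction (0.0288%), both higher, 860 had an unadjusted p under 0.05, and DESeq2 called 24.

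Genes related to the members by family or place were few in neutrophils. For this and the following gene lists, 16.8% of all 7577 genes had an unadjusted p under 0.05 in edgeR. Of 12 other stefin and cystatin genes measured, 3 were tested and none passed in edgeR, while 1 had an unadjusted p under 0.05 and DESeq2 called 1. They were Cst3 and Cstb, the broadly expressed cystatin C and stefin B, with log2 differences of 0.04 and -0.04, and Gm5416. Gm5416 lies within the stefin A cluster, at 23.4 and 33.7 against 9.56 and 10.5 CPM (-1.71 ± 0.33, edgeR adjusted p = 0.0604). Another gene of the cluster, 2010005H15Rik, was at 88.6 and 31.7 against 8.65 and 7.52 CPM (-3.09 ± 0.56, edgeR adjusted p = 0.0833), and shares part of its transcript end with Gm5483. BC117090 was at 9.26 and 3.56 CPM in Sed 1 and Sed 2, had no UMI in Ex 1 or Ex 2, and was not tested. These cluster genes were picked by position after the data had been seen. Of the resistin family only Retn, resistin itself, was tested, at 6.91 and 9.39 against 18.7 and 21.8 CPM (1.11 ± 0.34, edgeR adjusted p = 0.16, unadjusted p = 0.00974).

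The list of cysteine cathepsins, the proteases that stefins inhibit, also held the legumain gene Lgmn. None of its genes was called in either direction by edgeR or by DESeq2. Of 7 tested, Lgmn included, 1 was higher and 1 lower at an unadjusted p under 0.05, and their median log2 difference was 0.46. Ctsb was at 90.5 and 171 against 246 and 312 CPM (0.86 ± 0.31, edgeR adjusted p = 0.229), and Ctsl at 160 and 108 against 86.0 and 109 CPM (-0.69 ± 0.23, edgeR adjusted p = 0.189).

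In the lists of other neutrophil genes the fitted differences were smaller than those of the members. Called genes outside the lists are not described here. Of 15 granule genes tested 1 fell, Mmp8, a collagenase of the later granules. It went from 2327 and 1598 to 682 and 775 CPM (-1.65 ± 0.24, edgeR adjusted p = 0.0305). That change is within the SE of the Asprv1 change (-1.76 ± 0.24). The median of the 15 was -0.38, and 5 were lower and 1 higher at an unadjusted p under 0.05. Of 18 mature neutrophil genes none passed in edgeR, with a median of -0.25 and 2 lower at an unadjusted p under 0.05, and DESeq2 called 1. S100a8 was at 94490 and 76040 against 83650 and 54890 CPM (-0.50 ± 0.35) and S100a9 at 129000 and 125500 against 132100 and 84160 CPM (-0.43 ± 0.35), and in both the groups overlapped. Of 9 genes of the G-CSF and C/EBP axis, which drives granulocyte formation, none passed in edgeR or DESeq2 and 1 was higher at an unadjusted p under 0.05. The 2 most abundant of them were Cebpb (4171 and 4366 against 3301 and 4021 CPM) and Spi1 (834 and 812 against 733 and 724 CPM).

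Markers of other cell types were present at low level in the neutrophil-like cells. Their 16 genes summed to 929 CPM in Sed 1, 982 in Sed 2, 4123 in Ex 1 and 916 in Ex 2, and none was at 0 in any library. None of the 15 tested passed in edgeR or DESeq2, with a median of 1.63, and 3 were higher and 1 lower at an unadjusted p under 0.05. The Ex 1 sum was mostly Hbb-bs (1700 CPM) and Igkc (1300 CPM). Without the 112 cells of a subcluster led by Igkc and Cd74, a setting chosen after the data were seen, Retnlg changed by -1.85 and Gm5483 by -2.34, and 5 members passed, where 0.861% of 7205 genes were called lower.

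Across single neutrophils the genes most like Retnlg were S100a8, S100a9, Mmp8, S100a11 and S100a6, with mean within-library correlations of 0.532, 0.529, 0.506, 0.50 and 0.484 over the 4436 cells (Pearson, log values, among 2497 genes detected in at least 10% of them). Those most like the stefin A sum were Srgn, S100a11, Ccl6, Ifitm2 and Slpi, with weaker values of 0.251 to 0.21. Pairs of stefin A genes correlated at a median of 0.204, from 0.102 to 0.496 for Stfa2l1 with Gm5483, and each stefin with Retnlg at 0.0887 to 0.206. The cells of a library share its depth and its free RNA, the counts of most stefins were sparse, and these values carry no test.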

How the data were processed

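The deposited matrix holds raw UMI counts, made by the authors with Cell Ranger 7.0.0 and builds mm10 and GRCm38 per the submitters' processing notes, while the matrix header gives 6.1.1. Whether read depth was equalised between libraries is not given in the sources used here. Of 51140 matrix columns 22615 carry no barcode and were not used, and the first columns were matched to the barcodes in order. The number after a barcode was read as the library's place in the aggregation table.

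Barcodes needed 200 detected genes or more, and a mitochondrial share no higher than 10%. The Scrublet of scanpy 1.11.5 marked 3.5%, 0%, 0.02% and 0.02% of cells by its own threshold, so the highest scores at 0.8% per 1000 cells were removed instead (422, 462, 293 and 144 cells of Sed 1, Sed 2, Ex 1 and Ex 2). Clusters (Leiden 0.10.2, resolution 1, 2000 variable genes without the 8 members, 30 components, 15 neighbours) took the class with the best marker score. Clusters whose score, detected markers or leading genes fell short of set limits were left unnamed. Classes end in -like because they rest on markers. A cluster led by Mpo and Elane first scored as monocyte and was left unnamed by a rule added after it was seen. Neutrophil-like cells were clustered again on 20 components at resolution 0.5, giving 8 subclusters. The score of stages was the mean log value of 8 mature minus that of 6 granule genes.

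UMIs were summed per library and tested with edgeR 4.0.16 (robust quasi-likelihood, filterByExpr, TMM) in R 4.3.3. SEs were derived from log2 change and F. DESeq2 1.42.0, other filters, resolutions, normalizations, stage definitions, a replicate block and leaving out each library were alternatives. Those for granule-rich, monocyte-like and Kupffer-like cells and for the stage test, the equal stage weights and the 2 subcluster settings were chosen after seeing the data. On counts simulated from the neutrophil sums, the fit called 29 of 100 planted 2-fold changes, 85 of 100 planted 4-fold changes and 5 of 7377 unchanged genes. A gene that was not called may therefore still have changed. Intervals of ratios and floors cover counting error only, with each UMI taken as independent. Named genes were the 8 members, the genes of each list that passed (up to 4, otherwise the 2 most abundant) and the 5 most correlated genes. Cathepsins, Gm5416 and Retn named by size or p, Hbb-bs, Igkc and the stefin neighbours fall outside that rule and were chosen after their values were seen. The members and lists were chosen with earlier results of these data known.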

Additional observations from a re-analysis of the deposited data

Results flagged for a closer look

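For BC100530 the test of a difference in the exercise effect between late and intermediate neutrophils passed the threshold: late minus intermediate was 9.46 ± 1.38 on the log2 scale (edgeR quasi-likelihood interaction, adjusted p = 3.2e-08). It was the single member of 8 to pass, where 0.437% of 6185 genes did. The UMIs behind it were 4906 and 523 in the sedentary and 0 and 0 in the exercised intermediate cells, and 677 and 306 against 33 and 37 in the late cells. In late cells those exercised UMIs lay in 1.4% and 3.13% of the cells, and the exercised intermediate cells numbered 68 and 30, so that few with a UMI could have been seen. The count of 0 sets both the fitted size, which depends on the prior count, and the p-value, also without each library in turn (8.61 to 9.82). Whether the effect differs between the stages is therefore not shown.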

How the results depend on the processing

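Over all neutrophils each of the 8 members kept its negative direction in every alternative that used all stages. In subcluster 1 alone Retnlg was at 0.069, the reverse, and Stfa3 was not tested. Gene calls over all neutrophils numbered 29, and were 134 with DESeq2, 585 without the low-count filter, 99 with the stricter cell filter (500 genes, 5% mitochondrial), 201 with doublets kept, 148 without subcluster 7 and 0 to 794 with a library left out (0 without Ex 1, with 789 genes at an unadjusted p under 0.05 in edgeR, 8 without Ex 2, 222 without Sed 1, 794 without Sed 2). Late cells gave 24 calls, 41 with DESeq2, 159 without the filter and 34 to 360 with a library left out. Intermediate cells gave 18, then 58, 158 and 1 to 130. Granule-rich cells gave 312, 108 with DESeq2 and 74 to 395 with a library left out. Monocyte-like cells gave 366, 1131 without the filter and 7 to 1098 with a library left out. Kupffer-like cells gave 2, then 24 with DESeq2, 122 without the filter and 0 to 264 (0 without Ex 1 and without Ex 2, with 986 and 814 at an unadjusted p under 0.05). The stage test gave 27, and 13 to 35. Without Sed 1 or Ex 1, Stfa2l1 in monocyte-like cells was at 0.47 and 0.29 in place of -0.93 (-8.58 without Ex 2), and without Ex 2, Retnlg in Kupffer-like cells was at 0.069 in place of -0.77 (-8.91 without Ex 1). The cause of these moves was not tested. Leaving out a library leaves 1 in its group, which is then assumed to vary like the others.

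With the replicate block the calls were 817 over all neutrophils (7 members), 149 in late, 182 in intermediate, 471 in granule-rich, 797 in monocyte-like and 9 in Kupffer-like cells. Same-numbered libraries deviated together with a correlation of 0.152 over 7577 genes, but with 2 pairs and no label that ties them, the libraries share only a number.

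The Retnlg step from granule-rich to intermediate cells, 1.97, was 0.41 with 3 equal groups by the score, 0.70 with 3 by the granule genes, 2.28 with doublets kept and 1.59 with cells thinned, and 1.91 to 2.07 with a library left out. The step to late cells, -1.50, was -1.03 with 3 equal groups and -1.61 to -1.33 with a library left out. Those of the stefin sum moved by less than 1 SD, lying between 2.43 and 3.43 and between -0.26 and -0.00 with a library left out. Depth is low in the exercised intermediate cells, with 231079 and 162253 UMIs, and in subcluster 1 of Sed 1, with 75279.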
